A study of Mus musculus with 4 samples.

Results

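The S100 calcium-binding proteins described here are 10 genes of the 22222 symbols in the deposited table of normalised RNA-seq values, taken by symbol: S100a1, S100a3, S100a4, S100a6, S100a8, S100a9, S100a10, S100a11, S100a14 and S100a16. All 10 were in the table and all 10 reached the level set for testing, 1 scaled CPM (the deposited CPM, reads relative to a library size scaled by the authors) in at least 2 libraries, as did 15419 genes in all. The data were 4 libraries of mouse skin keratoacanthoma cells, 1 per mouse, from 4 different mice. In the group 1 week after DMBA, 2 mice had been treated with DMBA for 20 weeks and then kept without it for 1 week. In the group on DMBA, 2 mice had the same 20 weeks and their tumours were collected at 0 weeks, with treatment still in place. DMBA is a carcinogenic polycyclic hydrocarbon, and keratoacanthomas are squamous tumours of the skin that can regress spontaneously. The cells were sorted as positive for the Tomato reporter and for P-cadherin, and they are labelled as epithelial. The labels do not give the strain, sex or age of the mice, or the promoter behind the reporter. The title of the series concerns Wnt and retinoic acid signalling in regression, and the comparison here asks how S100 transcripts differed 1 week after the carcinogen was withdrawn.

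S100 proteins are small calcium sensors with a pair of EF-hand loops, and most act as dimers. On binding calcium they open a surface that docks partner proteins such as annexins and cytoskeletal proteins, and some are released from cells and act on receptors such as RAGE (Ager) and Tlr4. In skin, S100a8 and S100a9 form calprotectin, an antimicrobial complex abundant in neutrophils and monocytes that keratinocytes also make when the epidermis is wounded or inflamed. S100a4 is widespread in fibroblasts and leukocytes, S100a6 is found in many proliferating cells, S100a10 is the partner of annexin A2, S100a11 is cross-linked into the cornified envelope, S100a14 and S100a16 are epithelial members and S100a3 is a protein of the hair cuticle.

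All 10 genes lie on mouse chromosome 3 in the RefSeq annotation of GRCm38.p6. From S100a1 to S100a9, 8 of them lie in a run whose only other coding genes are S100 genes too, and S100a11 and S100a10 lie apart from it as next neighbours. S100a1 overlaps S100a13, which is read in the opposite direction, so that their reads could be confused if strand was not used in counting. S100a3 overlaps S100a2, and reads of the shared stretch could be confused too. The promoters of 8 of the 10 genes were in the RefSeq table. Shown are the 250 bases upstream of the start of 5 genes that stand for the patterns below. S100a8 and S100a9 were highest in the same library, S100a4 had groups that did not overlap, and S100a11 and S100a16 were highest in the library with the most keratinocyte transcripts. The windows are chr3:90668821-90669070 (plus strand), chr3:90695722-90695971 (minus strand), chr3:90603520-90603769 (plus strand), chr3:93520246-93520495 (plus strand) and, for the downstream start of S100a16, chr3:90540896-90541145 (plus strand), all in GRCm38.p6, a later build than the mm9 of the submitters' processing notes. Capitals mark matches on either strand to 6 patterns: TATAAA (core promoter box), TGANTCA (AP-1), TTNNGNAA (C/EBP), TTCNNNGAA (STAT), GGGCGG (GC box) and GAGGAA (ETS).
S100a8: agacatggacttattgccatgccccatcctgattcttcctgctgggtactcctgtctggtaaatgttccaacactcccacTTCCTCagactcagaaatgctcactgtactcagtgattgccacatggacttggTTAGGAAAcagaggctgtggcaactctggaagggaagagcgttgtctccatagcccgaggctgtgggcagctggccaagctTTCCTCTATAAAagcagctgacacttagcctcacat
S100a9: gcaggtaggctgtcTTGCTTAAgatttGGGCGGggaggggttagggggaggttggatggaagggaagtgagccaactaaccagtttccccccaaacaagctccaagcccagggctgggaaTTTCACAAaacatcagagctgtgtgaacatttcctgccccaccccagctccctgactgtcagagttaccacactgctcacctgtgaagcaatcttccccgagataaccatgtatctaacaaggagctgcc
S100a4: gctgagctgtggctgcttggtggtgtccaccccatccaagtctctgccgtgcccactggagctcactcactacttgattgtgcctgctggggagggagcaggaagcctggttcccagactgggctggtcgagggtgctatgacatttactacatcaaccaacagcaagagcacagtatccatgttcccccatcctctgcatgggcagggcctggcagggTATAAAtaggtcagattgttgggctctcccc
S100a11: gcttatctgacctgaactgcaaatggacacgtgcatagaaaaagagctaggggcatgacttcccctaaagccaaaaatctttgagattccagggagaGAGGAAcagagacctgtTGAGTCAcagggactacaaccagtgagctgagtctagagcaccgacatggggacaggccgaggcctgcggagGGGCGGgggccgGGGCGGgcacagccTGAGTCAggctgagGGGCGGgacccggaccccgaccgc
S100a16: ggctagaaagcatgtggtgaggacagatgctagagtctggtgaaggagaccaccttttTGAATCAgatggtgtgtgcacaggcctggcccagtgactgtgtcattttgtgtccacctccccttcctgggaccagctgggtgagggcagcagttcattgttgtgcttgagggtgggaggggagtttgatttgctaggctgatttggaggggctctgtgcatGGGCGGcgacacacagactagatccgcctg
S100a8 and S100a4 hold TATAAA, whose farther end is 30 bases before the start in S100a8 and 31 bases before it in S100a4. The 8 genes have 12 windows in the table, with several for S100a3 and S100a16. TATAAA was present in 3 of the 12 windows, 1 each of S100a8, S100a4 and S100a3, against 12.4% of all 32851 RefSeq windows of the same length. In S100a8 it directly follows an ETS match. The C/EBP pattern was found in 4 of the 12 windows (S100a8, S100a9 at 2 places, and 2 windows of S100a3), against 36.8% of all windows. The AP-1 pattern was found in 2 of the 12 (S100a11 at 2 places and S100a16 once), against 6.75%. The GC box was found in 4 of the 12 windows against 32.7% of all windows, the ETS pattern in 4 against 23.3%, and the STAT pattern in 0 against 7.02%. These matches describe the letters of the windows only.

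The 4 libraries differed widely in the cell types whose transcripts they held, and on-DMBA replicate 1 stood apart. The 10 basal keratinocyte markers summed to 5102 and 4123 scaled CPM at 1 week (replicates 1 and 2, in this order throughout), against 47409 and 967 on DMBA, and on-DMBA replicate 1 was highest for each of the 10. The 12 measured monocyte and macrophage markers ran the other way, with sums of 10976 and 15787 scaled CPM at 1 week, 13.4 in on-DMBA replicate 1 and 26557 in on-DMBA replicate 2. The 10 fibroblast markers summed to 51284 and 54213 at 1 week, and to 399 and 44128 on DMBA. Although the cells are labelled as epithelial, the basal keratinocyte sum was above the fibroblast sum in on-DMBA replicate 1 alone. In both 1-week libraries and in on-DMBA replicate 2 it was below the fibroblast sum and the monocyte and macrophage sum. The S100 levels of those libraries cannot be read as levels of epithelial cells alone. The sort antigen gene Cdh3 was present at 42.8 and 30.4 at 1 week, against 325 and 3.23 on DMBA. Depth was 5551937 and 7662159 reads at 1 week and 9678682 and 5635945 reads on DMBA, recovered from the deposited values. The log2 differences of the 10 S100 genes are therefore given with all 4 libraries and without each on-DMBA library. In such bulk samples, fewer cells of a type and less RNA per cell cannot be told apart.

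**Figure D1:**
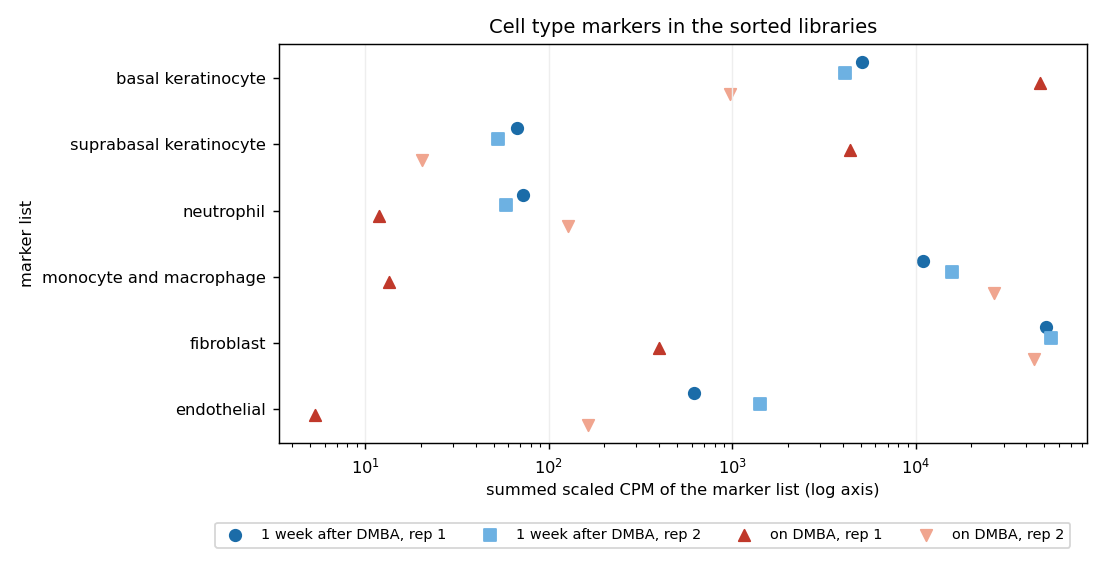
Summed scaled CPM (log axis) of 6 lists of cell type markers in each library, 1 point per library, with the 1-week libraries in blue and the on-DMBA libraries in red. On-DMBA replicate 1 has the highest keratinocyte sums and the lowest sums of every other list shown, for monocytes and macrophages 10976 and 15787 at 1 week against 13.4 in that library.

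With all 4 libraries, no S100 gene passed the test of 1 week against DMBA. By limma on log2(scaled CPM + 0.5), with Benjamini-Hochberg adjustment over all 15419 genes and a threshold of 0.05, 0 of the 10 genes were called in either direction (0% of all genes tested were called higher and 0% lower), and the adjusted p was 0.9997 for each. At an unadjusted p under 0.05 there were 0 of the 10 genes, and 352 higher and 30 lower genes in the whole table. On the recovered reads edgeR called 0 of the 10 and 0% of all genes in each direction, with 0 of the 10 at an unadjusted p under 0.05. DESeq2 also called 0 of the 10, where it called 0.104% of all genes higher and 0.0195% lower. By sign, 5 genes were higher and 5 lower at 1 week, and their median log2 difference was -0.12, against -0.02 over all genes tested. The median absolute log2 difference of the 10 genes was 0.54 between the 1-week libraries and 1.72 between the on-DMBA libraries. The on-DMBA libraries differed more than the 1-week libraries at each of the 10 genes, and at 70.4% of all genes tested.

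**Figure D2:**
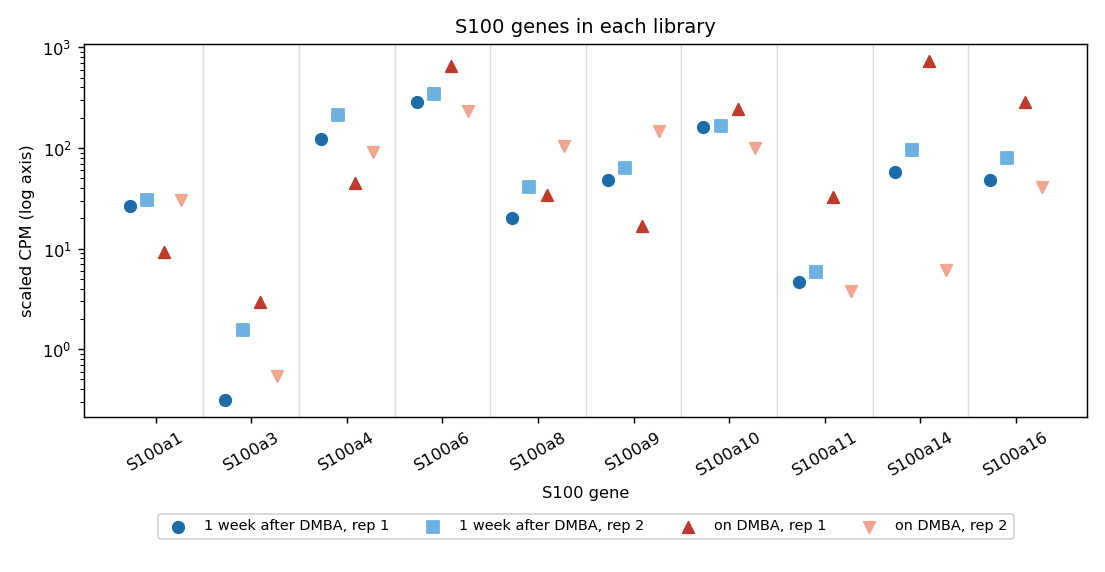
Level of each S100 gene (scaled CPM, log axis) in the 4 libraries, 1 point per library, with the 1-week libraries in blue and the on-DMBA libraries in red. The 1-week points of S100a14 lie at 58.1 and 94.8, between its on-DMBA points at 732 and 6.10, while the 1-week points of S100a4 lie above both of its on-DMBA points.

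The calprotectin subunit genes were most abundant in on-DMBA replicate 2. S100a8 was at 20.2 and 40.5 scaled CPM at 1 week, against 33.8 and 105 on DMBA. S100a9 was at 48.4 and 62.9 at 1 week, against 16.9 and 146 on DMBA. On-DMBA replicate 2 was thus the highest library for both genes, and the groups overlapped: on-DMBA replicate 1 was lowest for S100a9 and lay among the 1-week libraries for S100a8. The log2 difference at 1 week was -1.05 for S100a8 (SE 0.76) and 0.14 for S100a9 (SE 1.07). Without on-DMBA replicate 1, S100a8 was called lower at 1 week, by limma with a log2 difference of -1.86 (SE 0.55, adjusted p = 0.0271), in a fit that called 2.35% of all genes higher and 0.999% lower. In that fit S100a9 was at -1.39 (SE 0.57) and did not pass (limma adjusted p = 0.246). Without on-DMBA replicate 2 it was S100a9 that was called, and higher at 1 week, with a log2 difference of 1.68 (SE 0.54, limma adjusted p = 0.00978), while S100a8 was at -0.24. That fit called 14.3% of all genes higher and 10% lower. A fit without 1 library takes the lone library of the group to vary like the other group.

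The balance between the calprotectin transcripts also differed between libraries. S100a8 made up 29.4% of the reads of S100a8 and S100a9 together in 1-week replicate 1 (129 of 439 reads, 95% Clopper-Pearson interval 25.2 to 33.9%) and 39.2% in 1-week replicate 2 (284 of 725, 35.6 to 42.8%). On DMBA it made up 66.7% in replicate 1 (285 of 427, 62.1 to 71.2%) and 42.0% in replicate 2 (587 of 1399, 39.4 to 44.6%). S100a8 reads were the majority in on-DMBA replicate 1 alone. The groups did not overlap, but the intervals of 1-week replicate 2 and on-DMBA replicate 2 did. These intervals cover counting error only. An exact two-sided permutation test of the group means gave p = 0.33, the smallest that 2 against 2 libraries allow. The summed level of the neutrophil markers was highest and lowest in the same libraries as S100a9: the 11 measured summed to 72.2 and 58.6 scaled CPM at 1 week and to 11.9 and 127 on DMBA. By gene, 7 of the 11 were highest in on-DMBA replicate 2, Cxcr2 and Elane in 1-week replicate 1, and Mmp8 and Fcnb in 1-week replicate 2. On-DMBA replicate 1 was lowest for each of the 11, Fcnb being at 0 in both on-DMBA libraries. In that library Camp, Ngp, Elane and Fcnb were at 0 and the chemokine receptor gene Cxcr2, at 8.67, made up most of the sum. The monocyte and macrophage markers summed to 10976 and 15787 at 1 week and to 13.4 and 26557 on DMBA. Their sum ranked all the libraries as S100a9 did, whereas the neutrophil sum had the 1-week libraries in the other order. The part of neutrophils, monocytes and macrophages in the S100a8 and S100a9 values was not tested.

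**Figure D3:**
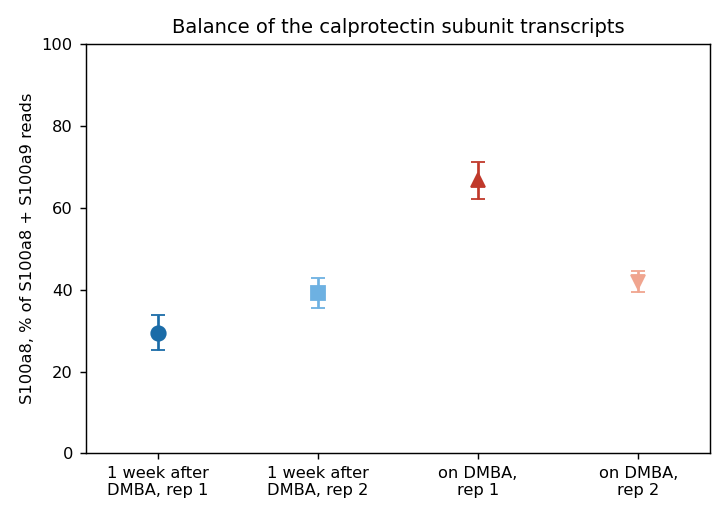
S100a8 reads as a percentage of S100a8 and S100a9 reads in each library, with bars for the 95% Clopper-Pearson interval, 1-week libraries on the left. The 1-week libraries lie at 29.4% and 39.2%, near on-DMBA replicate 2 at 42.0%, and on-DMBA replicate 1 stands at 66.7%.

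S100a4, which binds non-muscle myosin and is much used as a marker of fibroblasts, was the only S100 gene of the 10 whose groups did not overlap. It was at 122 and 209.9 scaled CPM at 1 week, against 44.6 and 91.2 on DMBA. The mean was 166 ± 62.5 at 1 week and 67.9 ± 32.9 on DMBA (SD, n = 2 each). Both 1-week libraries were higher than both on-DMBA libraries, as they were for 14% of all genes tested (9.14% were lower in both), so that 1 gene of 10 is close to the share in the whole table. The log2 difference was 1.32 (SE 0.62, 95% interval -0.25 to 2.88) and limma did not call it. It was called without on-DMBA replicate 2, at 1.83 (SE 0.57, limma adjusted p = 0.00808), and not without on-DMBA replicate 1, at 0.81 (SE 0.59). S100a4 was lowest in on-DMBA replicate 1, as were all 10 fibroblast markers, 11 of the 12 monocyte and macrophage markers, all 6 endothelial markers and all 8 T and NK cell markers. The endothelial markers summed to 616 and 1409 scaled CPM at 1 week, against 5.34 and 164 on DMBA, and the T and NK cell markers to 58.6 and 77.4 at 1 week, against 1.66 and 32.1 on DMBA. These 2 sums and that of the fibroblast markers ranked the libraries as S100a4 did, with groups that did not overlap. The sum of the monocyte and macrophage markers was highest in on-DMBA replicate 2. Single genes did not all follow the sums. Of the 10 fibroblast markers, 3 were highest in each 1-week library and 4 in on-DMBA replicate 2, with Col3a1 the most abundant. Cd4, at 52.4 and 59.2 at 1 week and 0.47 and 27.3 on DMBA, was the most abundant T and NK cell marker. It made up most of their sum outside on-DMBA replicate 1. Others were near the floor, such as Nkg7, with 2 reads in each library, and Cd3e, with 2 and 4 reads at 1 week and 1 in each on-DMBA library. At equal reads on-DMBA replicate 1 is lowest in scaled CPM, since 1 read is 0.119 there, the least of the 4 libraries. The part of these cells in the S100a4 level was not tested. S100a6, a chromosomal neighbour that binds the ubiquitin ligase adaptor Cacybp, did not follow it. S100a6 was at 289 and 339.7 at 1 week, against 650.0 and 231 on DMBA, so that the on-DMBA libraries lay on either side of the 1-week libraries, with a log2 difference of -0.31 (SE 0.73). It was 0.44 (SE 0.61) without on-DMBA replicate 1 and -1.05 (SE 0.68) without on-DMBA replicate 2, and limma called S100a6 in neither fit.

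The epithelial members had their highest level in on-DMBA replicate 1. S100a14 was at 58.1 and 94.8 scaled CPM at 1 week, against 732 and 6.10 on DMBA. The 1-week libraries differed by 0.70 on the log2 scale, and the on-DMBA libraries by 6.79, the widest gap of the 10 genes. With all 4 libraries its log2 difference was 0.11 (SE 2.16). Without on-DMBA replicate 1 it was called higher at 1 week, at 3.50 (SE 0.55, limma adjusted p = 6.25e-08). Lacking on-DMBA replicate 2 instead, the fit called it lower, at -3.29 (SE 0.60, limma adjusted p = 4.86e-07). The order of the libraries for S100a14 was near that of the basal keratinocyte sums given above, except that 1-week replicate 2 was above 1-week replicate 1 for S100a14 and below it for the sum. The part of keratinocyte content in the S100a14 levels was not tested.

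S100a16, which lies next to S100a14, had the same pattern over a smaller range. It was at 47.5 and 80.0 scaled CPM at 1 week, against 287 and 41.1 on DMBA. Its log2 difference was -0.81 (SE 1.01) with all 4 libraries, 0.58 (SE 0.56) without on-DMBA replicate 1 and -2.21 (SE 0.57, limma adjusted p = 0.000856) without on-DMBA replicate 2. S100a11, the envelope protein gene, was at 4.69 and 5.85 at 1 week, against 32.8 and 3.77 on DMBA. On-DMBA replicate 1 alone was high. RefSeq lists a pseudogene, S100a11-ps, with which reads may have been shared. The log2 difference of S100a11 was -1.05 (SE 1.11) with all libraries, 0.43 (SE 0.71) without on-DMBA replicate 1 and -2.54 (SE 0.58, limma adjusted p = 0.000106) without on-DMBA replicate 2. S100a3, the hair cuticle gene, was close to the limit of detection, with 2 and 11 reads at 1 week and 25 and 3 reads on DMBA. These are 0.31 and 1.57 scaled CPM at 1 week and 2.97 and 0.54 on DMBA, where a floor of 3 reads is 0.47 and 0.43 at 1 week and 0.36 and 0.54 on DMBA. The log2 difference of S100a3 was -0.55 (SE 0.97), with 0.32 (SE 1.70) without on-DMBA replicate 1 and -1.42 (SE 1.21) without on-DMBA replicate 2, neither of them called. On-DMBA replicate 1 was highest at 6 of the 10 genes (S100a3, S100a6, S100a10, S100a11, S100a14 and S100a16), against 41.7% of all genes tested, and lowest at 3 (S100a1, S100a4 and S100a9), against 37.5%.

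S100a10 and S100a1 completed the set. S100a10, whose protein links annexin A2 into a membrane complex and can bind plasminogen, was at 161 and 167 scaled CPM at 1 week, against 245 and 99.97 on DMBA. Its 1-week libraries differed by 0.05 on the log2 scale, the least of the 10 genes, and its log2 difference between groups was 0.06 (SE 0.63, 95% interval -1.54 to 1.67). It was 0.71 (SE 0.59) without on-DMBA replicate 1 and -0.58 (SE 0.61) without on-DMBA replicate 2, and limma called S100a10 in neither fit. S100a1, best known as a regulator of calcium handling in muscle, was at 26.6 and 30.1 at 1 week, against 9.14 and 30.7 on DMBA. On-DMBA replicate 1 was its low library and the others were alike. The log2 difference of S100a1 was 0.73 (SE 0.74) with all 4 libraries, -0.12 without on-DMBA replicate 1 and 1.58 (SE 0.54, limma adjusted p = 0.017) without on-DMBA replicate 2. The skeletal muscle markers summed to 15.3 and 13.1 at 1 week and to 2.14 and 5.74 on DMBA. These markers were scarce: Acta1, the most abundant, had 37 reads in each 1-week library and 6 and 13 on DMBA. Their sum was higher in both 1-week libraries, while S100a1 was highest in on-DMBA replicate 2. The overlapping gene S100a13 was at 28.0 and 42.5 at 1 week, against 11.04 and 34.8 on DMBA, again lowest in on-DMBA replicate 1.

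**Figure D4:**
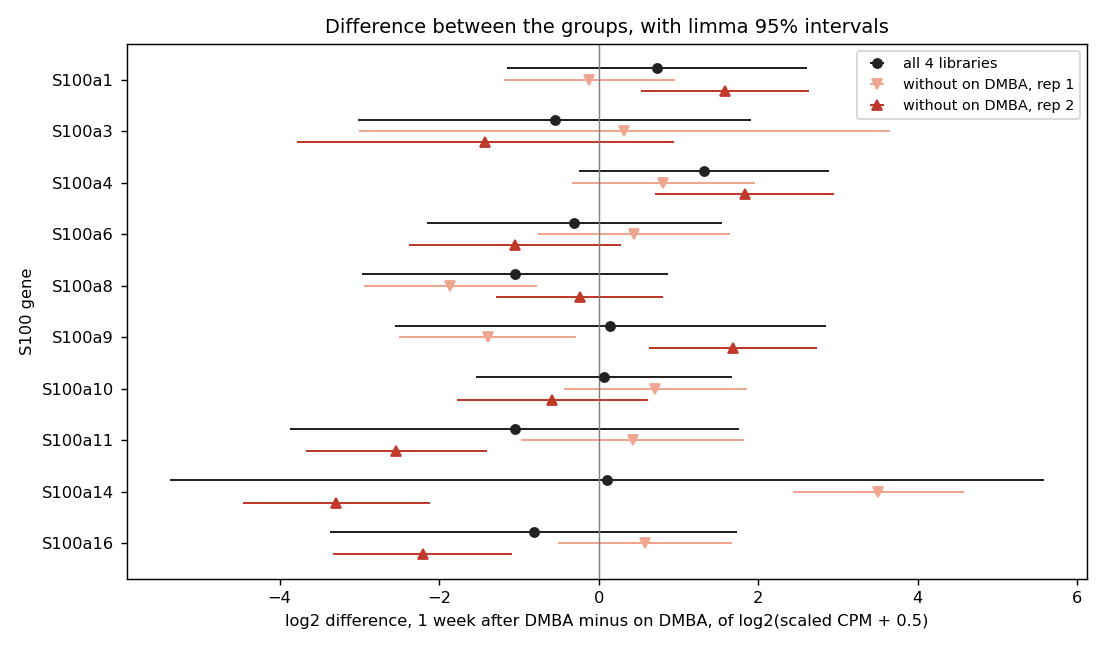
Log2 difference (1 week after DMBA minus on DMBA, on log2(scaled CPM + 0.5)) of each S100 gene with limma 95% intervals, for all 4 libraries (black) and without on-DMBA replicate 1 (light red) or 2 (dark red). With all 4 libraries every interval crosses 0, and S100a14 is at 3.50 without on-DMBA replicate 1 and at -3.29 without on-DMBA replicate 2.

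Leaving out either on-DMBA library gave different S100 calls. Without on-DMBA replicate 1, limma called 1 of the 10 genes higher (S100a14) and 1 lower (S100a8), where it called 2.35% of all genes higher and 0.999% lower. Without on-DMBA replicate 2 it called 3 higher (S100a1, S100a4 and S100a9) and 3 lower (S100a11, S100a14 and S100a16), where it called 14.3% of all genes higher and 10% lower. S100a14 was called in both fits, with opposite signs. The median log2 difference of the 10 genes was 0.43 without on-DMBA replicate 1, where that of all genes tested was 0.04, and -0.82 without on-DMBA replicate 2, where that of all genes was -0.06. Leaving out either 1-week library gave 0 calls among the 10 genes, and 0 in each direction among all 15419 genes tested.

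Within a library, the make-up of the S100 reads does not depend on how libraries were scaled. The 10 genes held 0.0896% and 0.0944% of all reads at 1 week and 0.179% and 0.0746% on DMBA. S100a6 was the steadiest part, with 37.2% and 32.9% of these reads at 1 week and 31.6% and 30.5% on DMBA. S100a14 held 7.48% and 9.19% at 1 week, against 35.6% and 0.808% on DMBA. S100a4 held 15.6% and 20.3% at 1 week and 2.17% and 12.1% on DMBA. S100a9 held 6.23% and 6.09% at 1 week and 0.821% and 19.3% on DMBA. S100a14 and S100a6 made up most of the S100 reads in on-DMBA replicate 1, while S100a6, S100a9 and S100a8 led in on-DMBA replicate 2. In the 1-week libraries S100a6, S100a10 and S100a4 led.

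**Figure D5:**
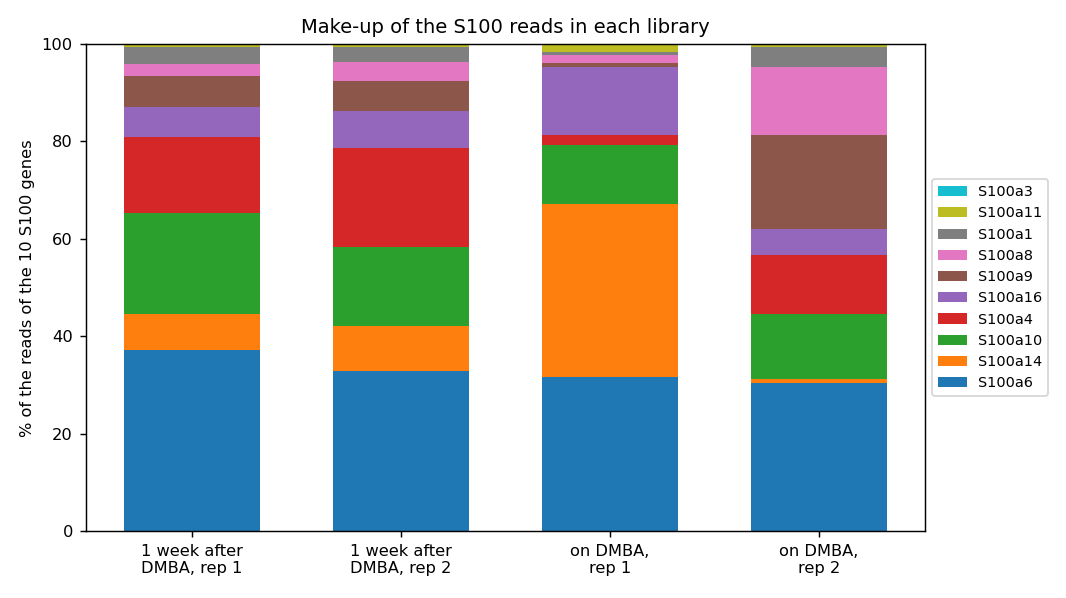
Share of each gene in the reads of the 10 S100 genes, in percent, with 1 stacked bar per library and the 1-week libraries on the left. S100a6 holds between 30.5% and 37.2% in every library, while S100a14 holds 35.6% in on-DMBA replicate 1 and 0.808% in on-DMBA replicate 2.

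Levels of different genes were compared per kilobase of the longest protein-coding GENCODE transcript. S100a6 was the highest in all 4 libraries, at 395 and 465 scaled CPM per kilobase at 1 week and 889 and 315 on DMBA. S100a3 was the lowest in all 4, at 0.44 and 2.20 per kilobase at 1 week and 4.17 and 0.76 on DMBA. By the mean over the 4 libraries the order was S100a6, S100a10, S100a4, S100a14, S100a9, S100a8, S100a16, S100a1, S100a11 and S100a3. The places between the ends changed with the library. S100a14 ranked 5 of the 10 in both 1-week libraries and 2 and 9 on DMBA, and each gene from S100a10 to S100a1 in this order exchanged places with the next in at least 1 library.

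The other S100 genes were scarce apart from S100a13. Of 7 further genes measured, 2 reached the level for testing and 0 passed. S100b, a glial and melanocytic member, was at 1.41 and 1.57 scaled CPM at 1 week, against 0.71 and 5.38 on DMBA. On-DMBA replicate 2 was its highest library. The fused-type genes encode large envelope and hair follicle proteins that start with an S100 domain. Of 6 measured, 3 were tested and 0 passed with all libraries. Rptn, which encodes repetin of the cornified envelope, was at 0.63 and 1.71 at 1 week, against 16.3 and 0.54 on DMBA. Without on-DMBA replicate 2 limma called Rptn and Tchh lower and S100a13 higher, in the fit that called 10% of all genes lower and 14.3% higher. Tchh, which encodes trichohyalin of the inner root sheath, was at 14.7 and 3.14 at 1 week, against 24.1 and 5.74 on DMBA.

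Annexins are calcium-dependent membrane binders, and several are docking partners of S100 proteins. Of 12 measured, 10 were tested and 0 passed, with a median log2 difference of 0.14. Anxa2, the partner of S100a10, was at 604 and 731 scaled CPM at 1 week, against 1217 and 339 on DMBA, with the on-DMBA libraries on either side of the 1-week libraries. Anxa1, a partner of S100a11, was at 366 and 557 at 1 week, against 899 and 324 on DMBA. For both pairs of partners the highest library was on-DMBA replicate 1 and the lowest on-DMBA replicate 2. Anxa6, a membrane-organising annexin that binds S100a6 and S100a1, had the largest difference of the list with all 4 libraries (log2 difference 2.11, SE 1.18). It was at 255 and 331 at 1 week and 19.7 and 225 on DMBA, and its groups did not overlap. Higher in both 1-week libraries were 3 of the 10 annexins tested (Anxa6, Anxa9 and Anxa11), against 14% of all genes tested. Lower in both were 0 of the 10, against 9.14%. Without on-DMBA replicate 1 the Anxa6 difference was 0.36 (SE 0.61) and was not called, and without on-DMBA replicate 2 it was 3.85 (SE 0.58). Anxa8, an epithelial annexin, was at 52.7 and 54.9 at 1 week, against 395 and 8.08 on DMBA, and was called with opposite signs without each on-DMBA library, at 2.66 without replicate 1 and at -2.87 without replicate 2. Without on-DMBA replicate 2 limma also called Anxa5 and Anxa6 higher, so that of the 10 annexins tested it called 2 higher and 1 lower, against 14.3% and 10% of all genes. Without on-DMBA replicate 1 it called 1 higher and 0 lower, against 2.35% and 0.999%. Of the other partner genes, 6 of 6 were tested and 0 passed. Cacybp was at 28.0 and 66.5 at 1 week, against 173 and 52.8 on DMBA. Padi3, which encodes a deiminase that modifies S100A3 in human hair cuticle, was at 34.4 and 27.1 at 1 week, against 124 and 3.59 on DMBA. Padi3 was called higher without on-DMBA replicate 1, and both Padi3 and Cacybp lower without on-DMBA replicate 2, in the same fits. Ahnak, a giant scaffold protein that binds the S100a10 and annexin A2 complex, was at 1730.3 and 2247 at 1 week, against 3512 and 2462 on DMBA. It was lower in both 1-week libraries (log2 difference -0.58, SE 1.06), the only 1 of these 6 genes, against 9.14% of all genes tested.

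The receptors for released S100 proteins were all tested and 0 of 7 passed with all libraries. Ager, which encodes RAGE, was low throughout, at 2.66 and 2.71 scaled CPM at 1 week, against 1.07 and 2.87 on DMBA. Tlr4, a receptor for calprotectin in innate immunity, was at 95.6 and 201 at 1 week, against 4.99 and 267 on DMBA. Cd36, a scavenger receptor that takes up lipids, was at 58.5 and 231 at 1 week, against 0.95 and 222 on DMBA. On-DMBA replicate 1 was low for Tlr4 and Cd36, as it was for the monocyte and macrophage markers. Bsg, which encodes the immunoglobulin-family protein basigin, was at 183 and 227 at 1 week, against 347 and 223 on DMBA. Mcam, an adhesion protein that binds calprotectin, was at 183 and 463 at 1 week, against 40.4 and 168 on DMBA. The Mcam groups did not overlap (log2 difference 1.81, SE 0.90). Mcam was the only 1 of the 7 receptor genes that was higher in both 1-week libraries, against 14% of all genes tested. The Mcam difference was 0.79 (SE 0.61) without on-DMBA replicate 1 and 2.83 (SE 0.59) without on-DMBA replicate 2. Tlr4, Cd36 and Mcam were called higher without on-DMBA replicate 2, where 14.3% of all genes were called higher. Without on-DMBA replicate 1, 0 of the 7 were called, where 2.35% of all genes were called higher and 0.999% lower. On-DMBA replicate 1 was lowest for 5 of the 7 receptor genes, against 37.5% of all genes tested. Ager, 1 of the 5, had only 17 and 19 reads at 1 week and 9 and 16 on DMBA.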

How the data were processed

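RNA of sorted tumour cells was depleted of ribosomal RNA and sequenced with strand marking, per the labels' protocols. CASAVA 1.8.2, TopHat2 2.1, HTSeq, edgeR 3.2.3 and mm9 appear in the submitters' processing notes, without role. Neither the counting annotation nor the use of strand is given in the sources used here. The authors deposited a normalised signal for each gene, called CPM in the table. Its columns sum to 867697 and 1092838 for the 1-week replicates and 1149287 and 1011509 for the on-DMBA replicates, so it is read as CPM of a scaled library size. Within a library 100% of values were whole multiples of the smallest (tolerance 0.01 reads), which gave reads. Of the symbols, 20018 matched the gene name table.

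Tests used R 4.3.3 with limma 3.58.1 (variance trend, two-sided) on log2(scaled CPM + 0.5), fitted over all genes at 1 scaled CPM in 2 libraries. Such differences understate the change of low genes. Alternatives were DESeq2 1.42.0 and the quasi-likelihood test of edgeR 4.0.16 on those reads, other pseudocounts, filters, scalings and variance models, a replicate block and leaving out each library. The 10 genes and the lists of related genes and markers were chosen with earlier results of these data known. All 10 genes are named. From other lists, those with the extreme differences or the most abundant are named, with others chosen after their values were seen. The planned description of the proteins was not made, and no protein sequence is used here.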

Additional observations from a re-analysis of the deposited data

How the results depend on the processing

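With all 4 libraries 0 genes of the table were called in each direction, and 0 again under both other pseudocounts, both other filters, all 3 other scalings, both other variance models and edgeR. DESeq2 called 16 higher and 3 lower. Leaving out a library gave between 0 and 2212 higher and between 0 and 1549 lower. No animal links the replicate numbers, and the labels used here name no batch. The deviations of same-number replicates correlated at 0.015 between groups, which cannot show whether a batch was shared. The replicate block called 285 higher and 3 lower genes. The median log2 difference of the 10 S100 genes was -0.12 and ranged from -0.82 to 0.43 with a library left out. It was -0.70 in edgeR, -0.75 in DESeq2 and -0.18 with median ratio scaling. The sign of the median also turned under other choices. It was 0.03 with libraries rescaled to the same total, 0.04 with quantile normalization and 0.06 with the filter of 5 scaled CPM, which leaves out S100a3. The other filters, the other variance models and the replicate block cannot change the log2 difference of a gene that they keep. Nor can leaving out a library turn the direction of a gene whose groups do not overlap, as with S100a4. With these limits, S100a4 and S100a8 kept their direction under all 16 alternatives. Leaving out a library turned the direction of the other 8, with ranges of -0.12 to 1.58 for S100a1, -1.42 to 0.32 for S100a3, -1.05 to 0.44 for S100a6, -1.39 to 1.68 for S100a9, -0.58 to 0.71 for S100a10, -2.54 to 0.43 for S100a11, -3.29 to 3.50 for S100a14 and -2.21 to 0.58 for S100a16. S100a9, S100a10 and S100a14 also turned on the recovered reads, to -0.54, -0.0049 and -2.18 in edgeR and to -0.59, -0.049 and -2.23 in DESeq2. The cause was not tested. Rescaling all libraries to the same total shifted the median of all genes by 0.14 and quantile normalization by -0.12. S100a3 fell below the filter of 5 scaled CPM. Its counts of 2 to 25 reads limit any statement on it.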

Other observations

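Among the 11778 other tested genes that averaged 5 scaled CPM or more, those whose centred log2 levels over the 4 libraries lay nearest to S100a4 were Dlc1, Thsd1 and Gpr35, at Euclidean distances of 0.16, 0.18 and 0.22. Dlc1 was at 50.6 and 85.0 scaled CPM at 1 week, against 16.7 and 32.7 on DMBA. Nearest to S100a8 were Ptgs1, Mtap2 and Fggy, at 0.30, 0.36 and 0.36. Ptgs1, which encodes cyclooxygenase 1, was at 36.9 and 84.0 at 1 week, against 63.6 and 163 on DMBA. Nearest to S100a14 were Duoxa1, Krt17 and Spint2, at 0.51, 0.54 and 0.63. Krt17, a keratin of stressed and follicular epithelium, was at 157 and 395 at 1 week, against 2265 and 16.5 on DMBA. With 4 libraries such closeness is a description only.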
